A study of Arabidopsis thaliana with 12 samples.

Results

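The 31 genes described here had at least a 1.5-fold lower array signal, relative to the median probe of the sample, in Arabidopsis thaliana plants given proline than in plants given water. Proline samples came from wild-type plants of the ecotype Wassilevskija treated with 100 mM proline for 6 h (6 samples), and water samples came from water-treated wild-type plants of the same ecotype (6 samples). The labels describe a comparison of toxic cellular proline with water. They give no duration for the water treatment, no organ and no source of the replicates. Time and treatment therefore cannot be told apart, and the spread between samples, which is all that a p-value measures here, may be technical.

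The members were chosen by their values, so the differences between proline and water that follow are descriptions without a test. Each of the 692 probes paired with exactly 1 gene was divided by the median of all 3439 probes of its sample. Of these probes 538 were above 0 in all 12 samples, 112 of them had a water mean at least 1.5 times the proline mean, and in 67 of those the highest proline sample also lay below the lowest water sample. The rule leaves out the brightest 10% of single-gene probes by water mean, which held 29 of the 67. It also leaves out 15 genes by name, 7 of which met every other condition, and 31 genes remain. All levels below are median-scaled intensities, where 1 is the median probe of that sample, unless they are called deposited values. A fold lower is the water mean over the proline mean.

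Proline accumulates in plant cells under drought, salt and cold and serves as a compatible solute. It is made from glutamate in the cytosol and plastid and broken down in mitochondria by proline dehydrogenase and a second dehydrogenase that removes pyrroline carboxylate, an intermediate that harms cells when it builds up. Supplied from outside at high concentration, proline can stop growth. No gene of the list of proline metabolism and transport had a probe of its own here, so these genes are not analysed here. The members are known in the tables by locus number, and the roles given below are general background on those loci rather than results. They cover 22 of the 31 genes.

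The size of the difference depends on dividing by the sample median, because the deposited medians themselves differed. The median deposited intensity was 0.269 ± 0.068 in proline samples and 0.177 ± 0.008 in water samples (SD, n = 6 each), a ratio of 1.52. Proline samples 3 and 4 had the highest medians, 0.361 and 0.350, and the other proline samples lay between 0.213 and 0.240. In the deposited values 0 of the 31 genes met the rule, 28 had a lower mean with proline and 3 a higher one, and the groups were separate for 2 genes (2.79% of the 538 single-gene probes were lower and separate there). "Lower" in this text therefore means lower than the change of the median probe. Which of the scales follows the amount of RNA was not tested.

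**Figure D1:**
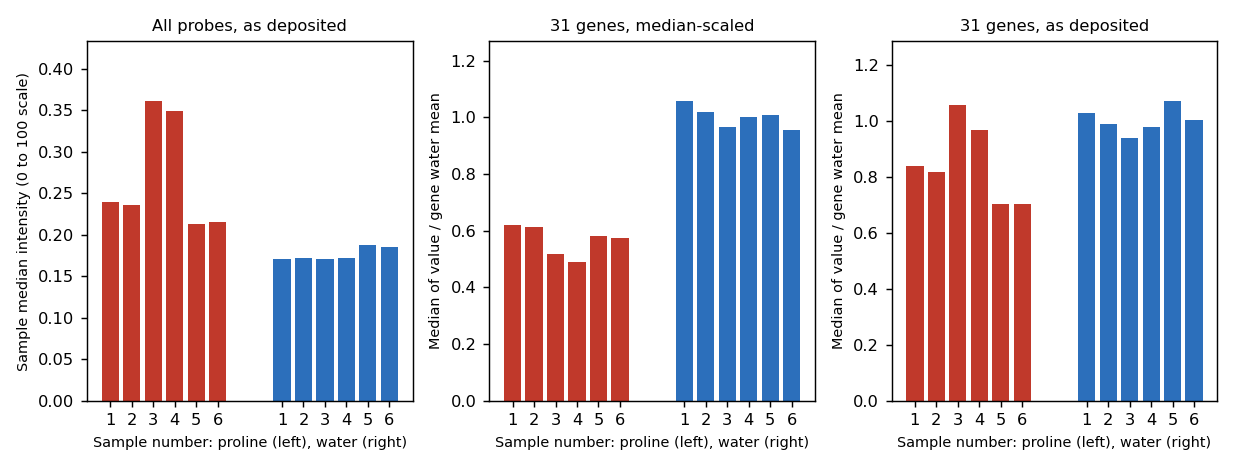
Bars give the sample median of all 3439 probes as deposited (left), and the median over the 31 genes of each value divided by that gene's water mean, after scaling by the sample median (middle) and as deposited (right), for proline samples 1 to 6 and water samples 1 to 6. After scaling, the proline samples stood between 0.489 and 0.619 and the water samples between 0.954 and 1.06, while as deposited proline samples 3 and 4 stood at 1.06 and 0.966, within the water range.

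Across the 31 genes the scaled difference ran from 1.501-fold to 3.92-fold lower, with a median of 1.71, and 9 genes were at least 2-fold lower. The rule required all 31 to have separate groups, where 13.4% of the 538 single-gene probes above 0 in all samples were lower and separate. In the limma fit over all tested probes, which used the same values as the rule, all 31 had an adjusted p under 0.05 and lower values with proline, and nothing is read from that count. Of all 3071 tested probes 22.3% were lower and 14.8% higher, and 20.7% of the 617 tested single-gene probes were lower. That split depended on the scale, with 453 probes higher and 686 lower after median scaling, 586 and 573 after cyclic loess, and 1191 and 178 as deposited. Averaging samples 1 with 2, 3 with 4 and 5 with 6 of each group left 196 lower probes (6.38%) and 182 higher ones (5.93%). The median log2 fold change of the members in that fit was -0.78, against -0.06 over the tested single-gene probes and -0.10 over all tested probes.

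**Figure D2:**
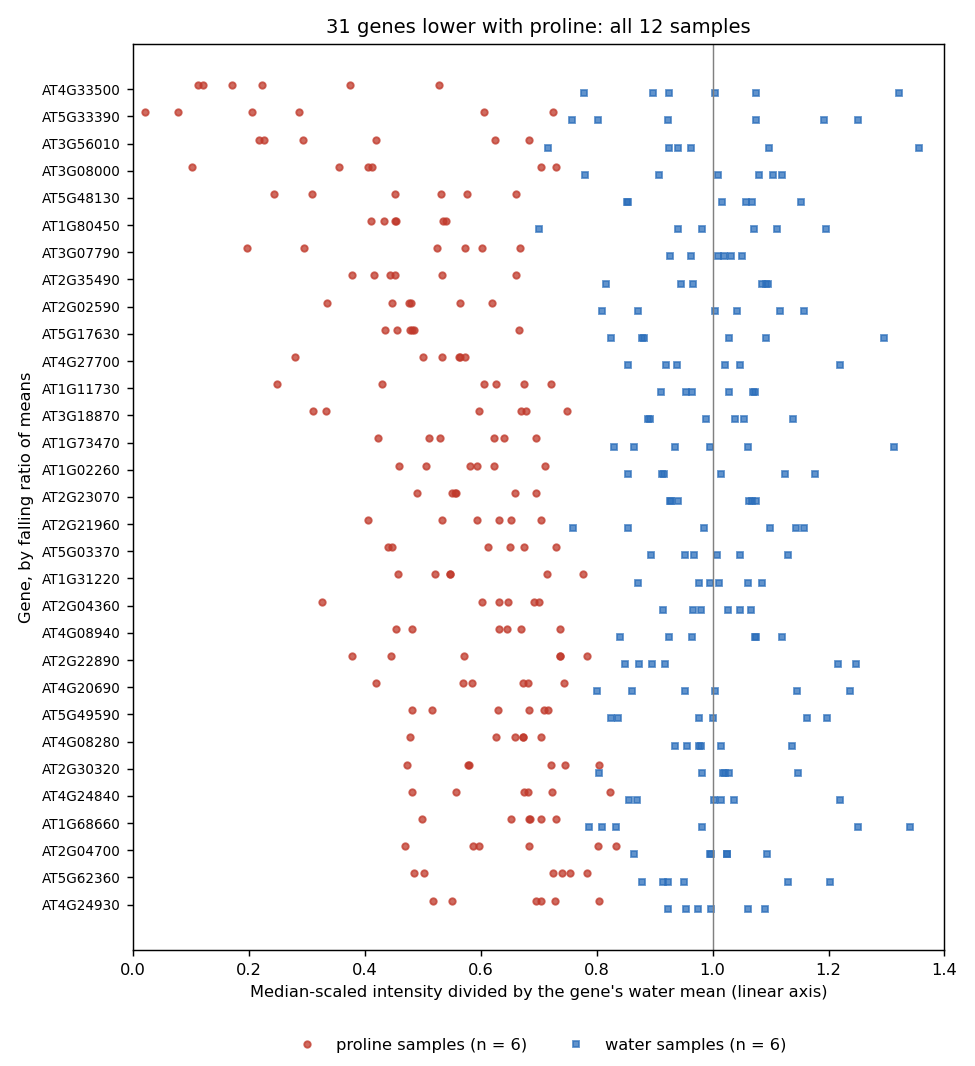
Each row is 1 gene, ordered by the ratio of means, and each point is 1 sample's median-scaled intensity divided by that gene's water mean (proline, circles; water, squares; 6 samples each). The proline points spread widely for AT4G33500, AT5G33390 and AT3G08000, and for AT2G30320 the highest proline sample and the lowest water sample nearly touch.

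Protein phosphorylation is represented by a phosphatase and a kinase. AT4G33500, a protein phosphatase of the PP2C family, showed the largest difference of the 31 genes. It stood at 0.188 to 0.879 in proline samples (median 0.328) and at 1.30 to 2.20 in water samples (median 1.61), 3.92-fold lower with proline. The 2 highest proline values were those of samples 3 and 4, at 0.879 and 0.623. In the deposited values the difference was 2.30-fold, with overlapping groups, because proline sample 3 at 0.318 passed the lowest water sample at 0.222. AT2G23070, listed as CKA4 and encoding the plastid catalytic subunit of the kinase CK2, stood at 1.05 to 1.49 in proline samples (median 1.19) and at 1.99 to 2.31 in water samples (median 2.15). Its coefficient of variation was 13.2% in proline and 7.57% in water, and it was 1.71-fold lower, or 1.14-fold as deposited.

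Genes for thiol and redox proteins were 1.51- to 1.99-fold lower. AT4G27700, a rhodanese-domain protein, stood at 0.740 to 1.52 in proline samples (median 1.452) and at 2.26 to 3.23 in water samples (median 2.60). Proline sample 4 alone gave the 0.740, and the other proline samples lay between 1.33 and 1.52. AT4G08280, a protein with a thioredoxin fold, stood at 0.738 to 1.09 in proline samples (median 1.03) and at 1.446 to 1.76 in water samples (median 1.51), and proline sample 4 was again the lowest. AT2G04700 encodes the catalytic subunit of ferredoxin-thioredoxin reductase, which passes electrons from ferredoxin to the thioredoxins that switch plastid enzymes on in light. Its levels were 0.853 to 1.52 in proline samples (median 1.16) and 1.57 to 1.99 in water samples (median 1.84). These 3 genes met the rule under quantile normalization as well, but as deposited the difference was 1.03- to 1.35-fold.

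Among the genes tied to plastid membranes and the thylakoid lumen, AT2G35490, a fibrillin of the plastid lipid-associated family, was lowest relative to water. It stood at 0.450 to 0.786 in proline samples (median 0.533) and at 0.972 to 1.30 in water samples (median 1.22), 2.08-fold lower. Its highest proline sample was sample 3. AT2G22890, a desaturase-like protein of the FAD4 family, stood at 1.53 to 3.16 in proline samples (median 2.64) and at 3.43 to 5.04 in water samples (median 3.67). Water samples 5 and 6 were the high ones, and the other water samples lay closer together. AT4G24930, a protein of the thylakoid lumen, stood at 2.54 to 3.95 in proline samples and 4.53 to 5.35 in water samples. With a ratio of 1.501 it was nearest of all members to the ratio threshold, and under quantile normalization its ratio was 1.450.

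Transport was represented by AT5G17630, a sugar phosphate translocator of the plastid envelope, and AT1G02260, a putative ion symporter. AT5G17630 stood at 0.267 to 0.410 in proline samples (median 0.295) and at 0.507 to 0.797 in water samples (median 0.588), 1.999-fold lower. Proline sample 1 was the high one, and the other proline samples lay within 0.267 to 0.299. AT1G02260 stood at 1.27 to 1.97 in proline samples and 2.37 to 3.26 in water samples, 1.73-fold lower. The translocator's groups overlapped under quantile normalization, where it was 1.76-fold lower.

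Of the 4 genes with a role in RNA or organelle gene expression, AT3G08000 and AT3G07790 differed most. AT3G08000, an RNA-binding protein with an RNA recognition motif, stood at 0.0696 to 0.501 in proline samples (median 0.281) and at 0.535 to 0.768 in water samples (median 0.717), 2.21-fold lower. Proline sample 5 was lowest, and samples 3 and 4, at 0.483 and 0.501, came close to the water values. AT3G07790, of the DGCR14-related family, stood at 0.455 to 1.54 in proline samples (median 1.26) and within 2.13 to 2.42 in water samples (median 2.33). Here proline samples 3 and 4 were the lowest, and the water samples varied less than for any other member, with a coefficient of variation of 4.64%.

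AT3G18870, of the mTERF family that acts in organelle transcription, stood at 0.623 to 1.502 in proline samples (median 1.27) and at 1.78 to 2.28 in water samples (median 2.03). Proline samples 3 and 4 were again the lowest, at 0.623 and 0.667. AT3G18870 and AT3G07790 were the 2 members whose groups stayed separate in the deposited values, where they were 1.26- and 1.49-fold lower. AT2G30320, a pseudouridine synthase, stood at 0.809 to 1.38 in proline samples and 1.38 to 1.96 in water samples. Its highest proline sample, 1.3761, and lowest water sample, 1.3766, were separated by the smallest gap of the 31 genes. Its groups overlapped under quantile normalization, and as deposited its mean was higher with proline, 0.309 ± 0.128 against 0.302 ± 0.030 with water (SD, n = 6 each).

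The 3 genes of metabolism and protein turnover had smaller differences, between 1.52- and 1.69-fold. AT5G03370, an acylphosphatase, stood at 0.801 to 1.33 in proline samples and 1.63 to 2.06 in water samples. AT1G31220, a phosphoribosylglycinamide formyltransferase of purine synthesis, stood at 0.703 to 1.19 in proline samples (median 0.841) and at 1.34 to 1.67 in water samples (median 1.54), with proline samples 3 and 4 above the other proline samples. AT1G68660 encodes the plastid ClpS adaptor, which hands substrates to the Clp protease. It stood at 0.233 to 0.340 in proline samples (median 0.319) and at 0.367 to 0.625 in water samples (median 0.423), with water samples 1 and 4 the highest. As deposited its means were 0.0833 ± 0.0249 with proline and 0.0820 ± 0.0176 with water (SD, n = 6 each), so it was not lower there, and under quantile normalization it was 1.28-fold lower with overlapping groups.

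Golgi and cell wall functions were represented by AT1G11730, a galactosyltransferase, AT5G62360, a pectin methylesterase inhibitor family protein, and AT4G24840, a subunit of the conserved oligomeric Golgi complex. AT1G11730 stood at 0.687 to 1.998 in proline samples (median 1.70) and at 2.52 to 2.97 in water samples (median 2.76), and its low proline values were those of samples 6 and 5, at 0.687 and 1.19. AT5G62360 stood at 1.04 to 1.68 in proline samples and 1.88 to 2.57 in water samples, 1.504-fold lower. AT4G24840 stood at 0.605 to 1.04 in proline samples and 1.077 to 1.54 in water samples, 1.52-fold lower. Both lay near the threshold. As deposited AT5G62360 was 1.03-fold lower, and AT4G24840 had means of 0.227 ± 0.089 with proline and 0.223 ± 0.037 with water (SD, n = 6 each).

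Both signalling genes were more than 2-fold lower. AT5G48130, of the NPH3 family named for a phototropism regulator, stood at 0.233 to 0.631 in proline samples (median 0.469) and at 0.813 to 1.10 in water samples (median 0.991). Proline samples 3 and 4 were the lowest, and as deposited the gene was 1.51-fold lower, its highest proline sample meeting its lowest water sample. AT1G80450, a VQ-motif protein, a family that binds WRKY transcription factors, stood at 0.444 to 0.584 in proline samples (median 0.490) and at 0.758 to 1.29 in water samples (median 1.11). Its 6 proline samples were the tightest of any member, with a coefficient of variation of 11.5%.

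The remaining 9 genes are given without a role. AT5G33390 stood at 0.0072 to 0.261 in proline samples (median 0.0886) and at 0.273 to 0.451 in water samples (median 0.360). Its 3.13-fold difference rests on 4 proline values under the floor of 0.179 used in the fit, and with these set to the floor it was 1.81-fold lower. AT3G08000, with 1 proline value under the floor, was the other member with any, and was 2.09-fold lower on that footing. AT3G56010 stood at 0.211 to 0.663 in proline samples (median 0.346) and at 0.696 to 1.32 in water samples (median 0.925), 2.44-fold lower, and 1.70-fold as deposited. AT2G02590 stood at 0.659 to 1.22 in proline samples and 1.59 to 2.27 in water samples, 2.05-fold lower. The other 6, AT1G73470, AT2G21960, AT2G04360, AT4G08940, AT4G20690 and AT5G49590, were 1.61- to 1.75-fold lower, and as deposited between 1.07- and 1.19-fold lower with overlapping groups.

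**Figure D3:**
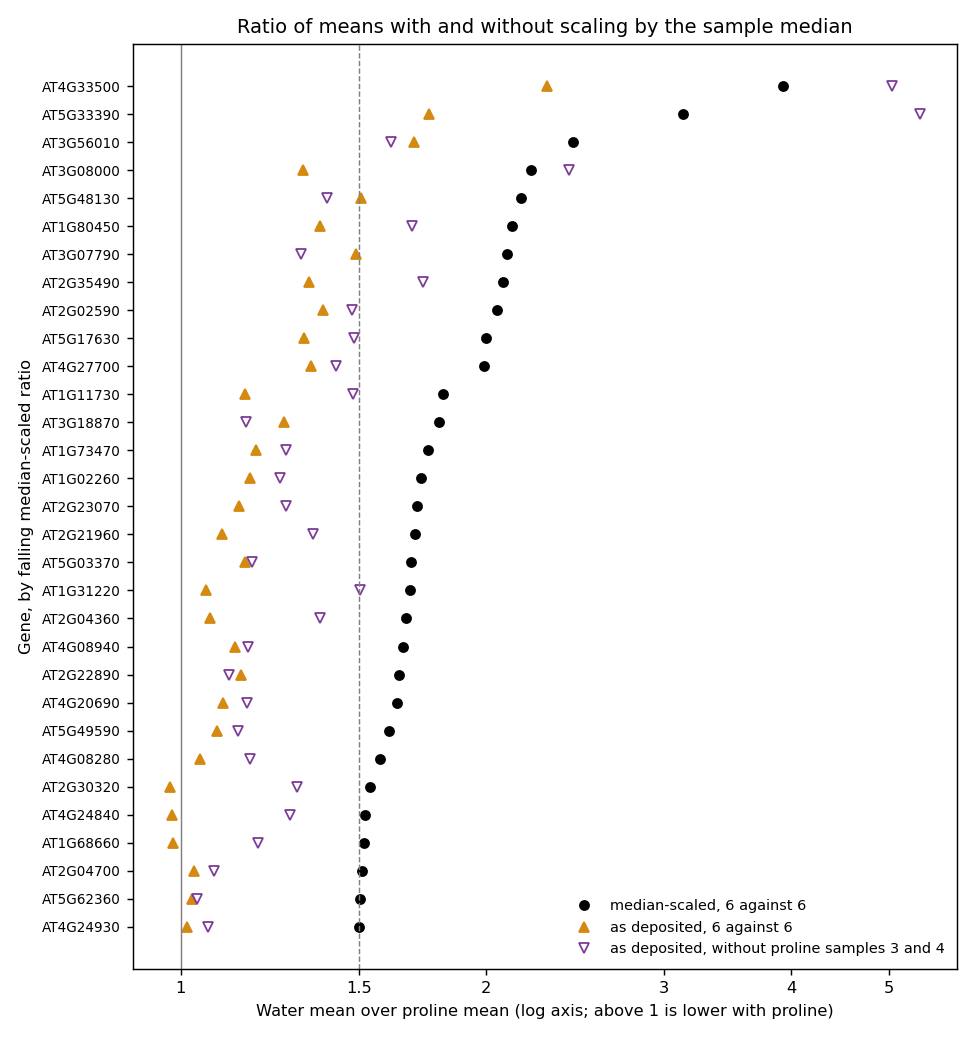
For each gene the water mean over the proline mean is shown on a log axis for median-scaled values of all samples (circles), deposited values of all samples (upward triangles) and deposited values without proline samples 3 and 4 (open downward triangles); the dashed line is the threshold of 1.5. Every deposited ratio lies left of its scaled ratio when all samples are used, and the deposited ratios run from 0.977 to 2.30.

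The narrow side of the selection can be seen from its neighbours. Just inside the ratio threshold stood AT4G24930 (1.501), AT5G62360 (1.504) and AT2G04700 (1.511). Just under it, with separate groups, were AT5G03900 (1.46), AT4G00590 (1.42) and AT1G50390 (1.31). A further 34 single-gene probes outside the brightest 10% met the ratio but had overlapping groups. The nearest of them was AT1G65370, 2.34-fold lower, whose highest proline value of 0.38720 exceeded its lowest water value of 0.38716.

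The 6 proline samples did not stand in the same order for all 31 genes. In 12 genes both proline samples 3 and 4 lay below the other 4 proline samples, and in 4 genes (AT4G33500, AT5G33390, AT3G08000 and AT1G31220) both lay above them. These counts are not given here for the other probes, so nothing particular to the members is read from them. By means, samples 3 and 4 were lower than the other proline samples in 19 members of 31, and in 239 of the 437 other single-gene probes that were above 0 in all samples and outside the brightest 10%. AT3G07790 stood at 0.246 of its water mean in samples 3 and 4 and at 0.592 in the other proline samples, and AT3G08000 at 0.717 and 0.319. In the deposited values, samples 3 and 4 were on average lower than the other proline samples for 5 members, AT3G56010, AT5G48130, AT3G07790, AT3G18870 and AT2G22890. Samples 3 and 4 had the highest deposited medians of the proline samples. The deposited count for the other probes is not given here.

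**Figure D4:**
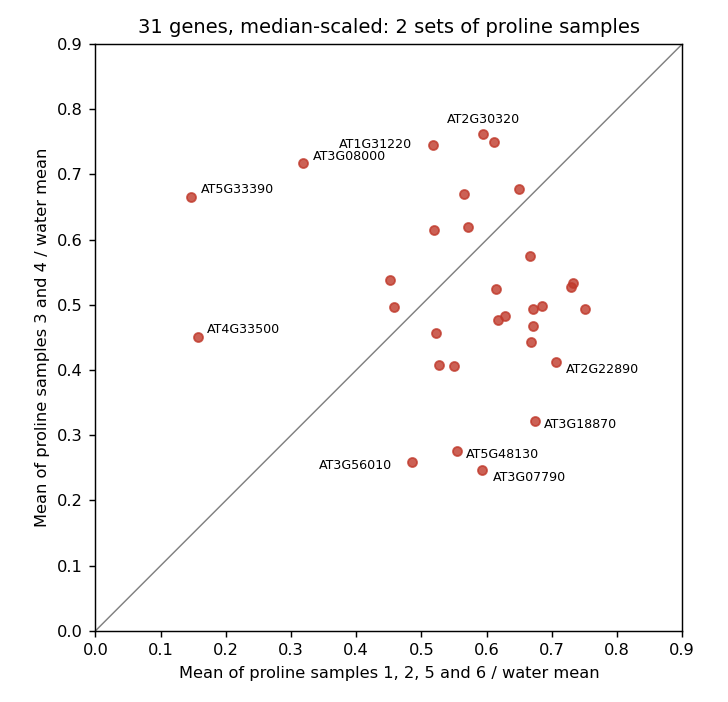
Each point is 1 of the 31 genes, placed by the mean of proline samples 1, 2, 5 and 6 (horizontal) and of proline samples 3 and 4 (vertical), both median-scaled and divided by the gene's water mean; the line marks equal values. Of the points 19 lie below the line and 12 above it. AT3G18870, AT3G07790 and AT2G22890 lie farthest below it and AT5G33390, AT3G08000 and AT4G33500 farthest above.

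Leaving out proline samples 3 and 4 kept 22 of the 31 genes at 1.5-fold or more after scaling. The 9 that dropped under it included AT2G04700 at 1.37, AT5G62360 at 1.33 and AT4G24930 at 1.37, whereas AT4G33500 stood at 6.38-fold lower. For AT5G33390 the 4 proline values left were all under the floor of 0.179, and against that floor it was at least 2.01-fold lower. Without these samples all 31 genes also had a lower proline mean as deposited, from 1.04- to 5.02-fold for the 30 genes other than AT5G33390, and in 10 genes the groups were separate (6.69% of the 538 single-gene probes). The median deposited intensity of the 4 proline samples used there was still 1.28 times that of water. The rule chose the members for low values in these same proline samples. The shares of other probes at 1.5-fold or more, or with a lower deposited mean, are not given here. Nothing particular to the members is therefore read from the counts of 22 and 31. The 10 included the phosphatase AT4G33500, the fibrillin AT2G35490, the VQ-motif protein AT1G80450, the rhodanese-domain protein AT4G27700 and the purine synthesis enzyme AT1G31220.

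The members varied little in water and more in proline. The coefficient of variation in water ran from 4.64% to 24.0% with a median of 12.9%, and was under 10% in 10 genes. In proline it ran from 11.5% to 89.4% with a median of 20.2%, and it exceeded that in water for 28 of the 31 genes. For the 437 other single-gene probes the medians were 24.4% in proline and 17.9% in water, so these too were higher in proline. The share of those probes with the higher value in proline is not given here. A requirement of separate groups favours genes with little spread, so the lower medians of the members were partly fixed by the rule. The rule also required a lower proline mean, which raises the coefficient of variation in proline at an equal SD.

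The variation from sample to sample within a group had no single direction over the members. Over the 465 pairs of members, the median Pearson correlation of log2 values was 0.00 across the 6 proline samples and 0.01 across the 6 water samples, and 50.1% and 50.3% of the pairs were above 0. Dividing by the sample median brings such a median near 0, and it pools genes that go opposite ways in proline samples 3 and 4, so subsets of members may still vary together. For pairs of the other single-gene probes the medians were 0.00 in proline and 0.02 in water. In deposited values the median in proline was 0.46 among members and 0.48 among the other probes. In water it was 0.04 and 0.02. Whether the unequal deposited medians of the proline samples account for the values in proline was not tested.

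The 31 loci were spread over all 5 chromosomes, with 6 on chromosome 1, 8 on chromosome 2, 4 on chromosome 3, 7 on chromosome 4 and 6 on chromosome 5. The single-gene probes numbered 173, 124, 130, 120 and 143 on these chromosomes. No members were adjacent. The closest were the thylakoid lumen gene AT4G24930 and the Golgi complex gene AT4G24840, with 6 protein-coding genes between them in assembly TAIR10.1.

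Few other genes of the pathways touched by the members had a probe of their own. Of 24 listed plastid proteases and their partners 2 were tested. The 1 called lower was AT1G68660, a member that the rule chose for lower values, so nothing is read from that call. The other, SPPA, was listed at 0 in all 6 water samples and was at 0 to 0.229 in proline samples (limma adjusted p = 0.557). Of 15 Calvin cycle genes 1 was tested. PRK, the phosphoribulokinase, was at 7.6 ± 2.3 in proline samples and 10.8 ± 1.8 in water samples (SD, n = 6 each). It did not pass (log2 fold change -0.56, SE 0.21, limma adjusted p = 0.054). Nor did it pass with the replicate number as a block (limma adjusted p = 0.053) or with the averaged samples (limma adjusted p = 0.26). The lists of isoprenoid synthesis, starch, plastid protein import and plastid transcription had no tested gene. Of the organ markers only the green tissue gene LHB1B2 was measured, at 39.1 ± 11.3 in proline samples and 74.3 ± 16.7 in water samples (limma adjusted p = 0.0053), 1.90-fold lower and 1.32-fold lower as deposited. LHB1B2 passed with the replicate number as a block (limma adjusted p = 0.023) but not with the averaged samples (limma adjusted p = 0.094). The root, seed and pollen markers had no probe of their own. Fewer cells of a type and less RNA per cell cannot be told apart in these samples.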

How the data were processed

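Total RNA of 12 samples was measured by expression array. The authors deposited 1 table of linear intensities from 0 to 100; how they were scanned, background-corrected and scaled is not given in the sources used here. Genes were taken from GEO's platform annotation, which can be old: of 1562 listed probes 692 had exactly 1 gene, and 690 of these matched TAIR10.1 by gene number. The number of arrays limits the precision.

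Each sample was divided by its median over all probes, then floored at 0.179 (percentile 5 of the positive values) and put on a log2 scale; 368 probes never above the floor were not tested. The fit was limma's (lmFit, eBayes; version 3.58.1 under R 4.3.3), proline minus water, two-sided, and p-values were adjusted over 3071 probes by Benjamini-Hochberg, with a threshold of 0.05. The fit was checked on simulated data with known changes. The simulated samples were independent of each other, so the check does not cover the links between sample numbers described below. Ratios of means use scaled values without the floor.

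The members, gene lists and tests were chosen with earlier results of these data known. Every member is named; a planned grouping by gene names and a planned description of promoters and proteins were not made with the tables used here. Deviations from group means correlated between proline and water samples of the same number at 0.155 to 0.468, all above 0.1. Each was above the highest correlation of that number with a different one. Neighbouring numbers shared that highest value, 0.152 for 1 and 2, 0.180 for 3 and 4, and 0.0829 for 5 and 6. The numbers can therefore be read as pairing the samples, and neighbouring numbers may not be independent. The fit given has no such block, counts 6 samples a group, and may overstate the independent units. The blocked fit and the means of neighbouring numbers are alternatives. The alternatives were other scalings, floors and filters, the replicate number as a block, means of neighbouring numbers and left-out samples. Scaling by the 75th percentile was added after the data were seen.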

Additional observations from a re-analysis of the deposited data

Results flagged for a closer look

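Of 62 sets of 6 values, 5 had a single sample standing apart, and all 5 were proline sets. In unselected values chance gives this in about 1 of 20 sets. The rule chose the genes by these same values and barred high proline or low water values that made the groups overlap. That rate is therefore no measure here, and nothing is read from the count or from the group. For AT5G17630 the sample standing apart was proline sample 1, at 0.4098, while the other 5 lay between 0.267 and 0.299. Proline sample 4 was low for AT4G27700, at 0.7404 with the other 5 between 1.33 and 1.52, and for AT4G08280, at 0.7383 with the other 5 between 0.969 and 1.09. Proline sample 5 was low for AT2G04360, at 0.3388, the others lying between 0.6250 and 0.726. Proline sample 6 was low for AT1G68660, at 0.2327, the others lying between 0.304 and 0.340.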

How the results depend on the processing

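Of the 31 genes, 25 met the rule under quantile normalization, 25 under cyclic loess and 27 after scaling by the 75th percentile. The 22 that met it under all of these leave out AT5G33390, AT3G56010, AT5G17630, AT2G21960, AT4G08940, AT2G30320, AT4G24840, AT1G68660 and AT4G24930. The share of all single-gene probes meeting the rule on these scales is not given here. The rule chose the genes from the same samples, so the counts only describe how far membership depends on the scale. In the values as deposited 0 met it, the median log2 fold change of the members was -0.21, and AT2G30320, AT4G24840 and AT1G68660 turned to 0.0331, 0.0284 and 0.0238 on the log2 scale. Leaving out 1 sample kept 27 to 31 genes at the rule, with a median from -0.82 to -0.77. Groups that are separate stay separate when a sample is left out, so only the ratio could fail there. Over all probes 453 were higher and 686 lower with proline. The values as deposited gave 1191 and 178, and averaging neighbouring sample numbers into 3 values a group gave 182 and 196. With the replicate number as a block, which leaves fold changes as they were, 490 were higher and 731 lower. Cyclic loess gave 586 and 573, and leaving out 1 sample gave 409 to 452 and 584 to 689.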
